A study of Mus musculus with 6 samples.

Results

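The genes described here are 9 genes of the fetal-like wound epithelium program, chosen by symbol from the deposited gene table: Ly6a, Clu, Msln, Anxa8, Anxa1, Anxa3, S100a6, Krt7 and Ankrd1. They are 9 of 21899 genes in that table. When DSS destroys colonic crypts, the epithelium that covers the wound leaves the adult stem cell state for a time and takes up genes of the fetal gut, with the coactivator YAP and its TEAD partners among the known drivers. Ly6a and Clu are the usual markers of that state in mouse colon. DSS, dextran sodium sulfate, is a polysaccharide given to mice to injure the colonic epithelium.

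The compared animals were mice without Adamts4 (KO, 3 libraries) and wild-type mice (WT, 3 libraries), and RNA was taken from colon tissue. All of them, the WT animals included, had received 2.5% DSS for 7 days, so no uninjured colon enters any value below and the values set one injured genotype against the other. ADAMTS4 is a secreted protease that cuts large matrix proteoglycans. The labels give no age, sex, strain, knockout allele or litter, so a difference in background cannot be told apart from the loss of the protease. Libraries were made from whole tissue, in which fewer cells of a type and less RNA per cell cannot be told apart.

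Total counts ran from 15786214 to 20348172 in KO libraries and from 17895970 to 22932125 in WT libraries. Adamts4 had 0 counts in each KO library, against 900, 992 and 997 counts in WT 1, WT 2 and WT 3, as the labels imply. KO 3 stood farthest out on the first principal component, and its fibroblast markers summed to 782 CPM (counts scaled to library size), against 2591 to 5102 CPM in the other 5 libraries. The labels number the libraries within each genotype but do not state that each is a separate animal, and if they are not, p-values here reflect technical spread alone.

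The 9 genes did not all go the same way between the genotypes, and no test of a shared direction was run. Anxa8 and Clu had the lowest KO levels relative to WT among the abundant members, at 0.467 and 0.577 of the WT level, Ly6a stood at 0.749, and Anxa1, Anxa3, S100a6 and Krt7 had KO and WT means close together. All 9 genes passed the filter on low counts. In edgeR's quasi-likelihood test with Benjamini-Hochberg adjustment over the 14553 genes tested, none of the 9 was called at an adjusted p below 0.05, where 0.151% of all genes were called lower and 0.00687% higher. DESeq2 called 1 of the 9, Anxa8, lower, beside 2.83% of all genes lower and 0.705% higher, and limma-voom called none. At an unadjusted edgeR p below 0.05 there were 2 members lower (Anxa8 and Clu) and 0 higher, against 7.85% and 5.17% of all genes. KO values lay wholly below WT values for 2 of 9 members (Ly6a and Clu) and wholly above for 0, where 10.2% and 9.35% of all tested genes did so. The median log2 fold change of the members was -0.14, beside 0.03 for all tested genes, and 6 of the 9 lay below 0, a share of 66.7% beside 45.8% of all tested genes. Without WT 1 the members' median was 0.05, and without KO 3 it was -0.40.

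**Figure D1:**
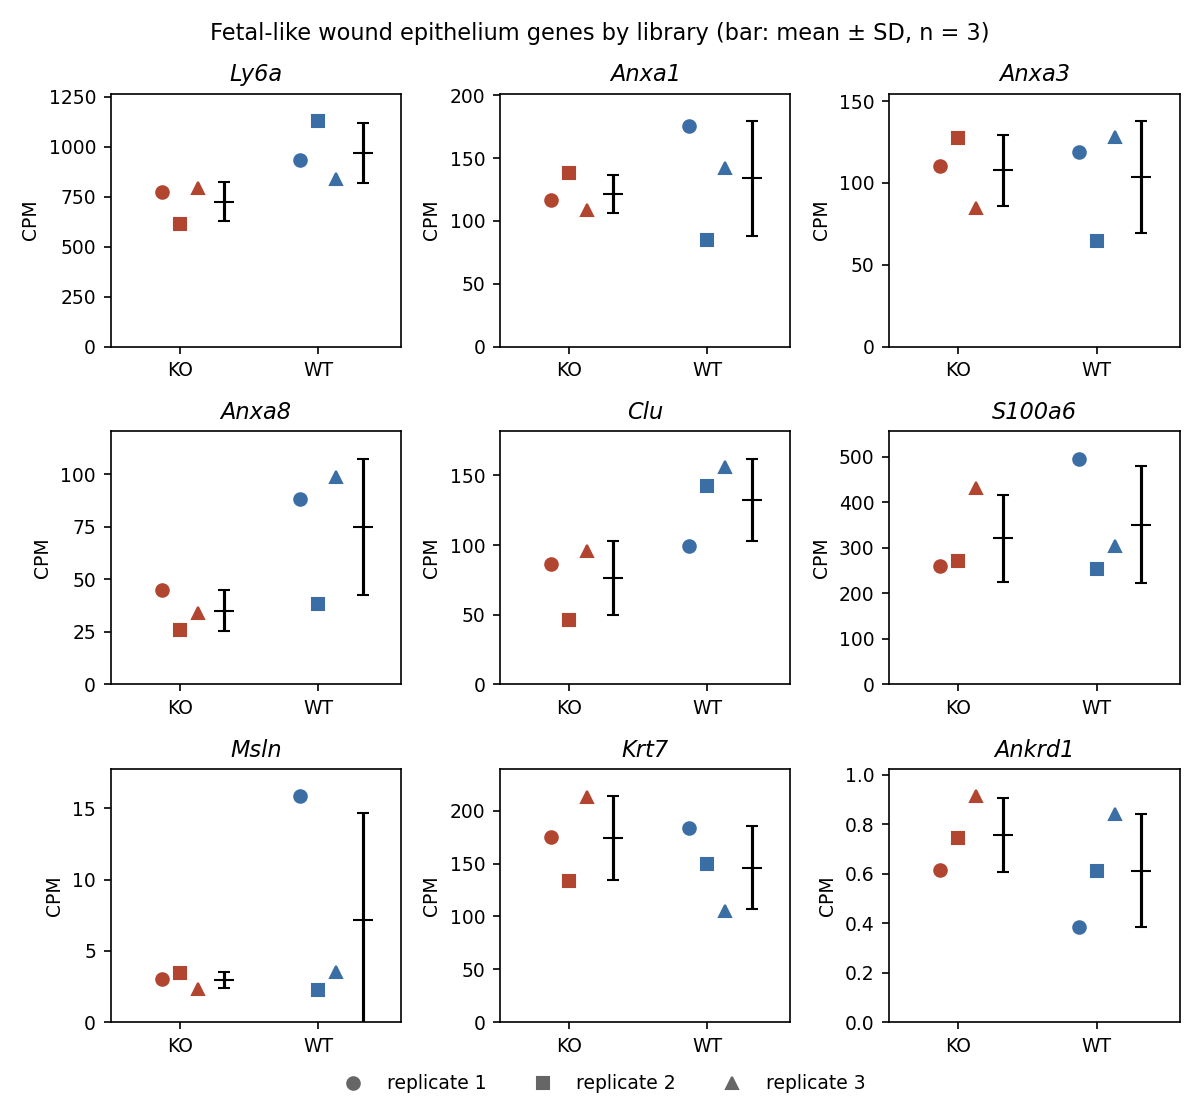
Level of each of the 9 genes in CPM scaled by TMM factors, by library, with KO left and WT right; symbols mark the replicate numbers and the black bar is the mean ± SD of 3 libraries. KO and WT points are apart only for Ly6a and Clu, and the WT mean of Msln rests on WT 1 at 15.8 CPM.

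Per length, the members differed in level by orders of magnitude. In TPM, the deposited length-scaled unit, averaged over all 6 libraries, Ly6a stood first at 1680 TPM and S100a6 second at 834 TPM. Anxa1 at 138 TPM, Anxa3 at 120 TPM and Clu at 109 TPM followed, with ranges over the libraries that overlapped one another. Krt7 averaged 85.7 TPM and Anxa8 53.3 TPM. Msln averaged 4.35 TPM and Ankrd1 0.633 TPM, which placed them above 25.9% and 4.69% of the tested genes, while Ly6a was above 99.5% of them. Ly6a and Clu RNA was thus abundant in both the KO and the WT libraries. With no uninjured colon, whether DSS raised either gene cannot be told, and which cells made their RNA was not tested. Ankrd1 was near the limit of detection.

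Ly6a encodes Sca-1, a lipid-anchored surface protein that marks repairing colonic epithelium and is also carried by endothelial, stromal and blood-forming cells and induced by interferon. The gene is on chromosome 15 (74994877 to 74998031, minus strand, GRCm38). Its levels were 772, 612 and 791 CPM in KO 1, KO 2 and KO 3, against 933, 1131 and 839 CPM in WT 1, WT 2 and WT 3. All KO values were below all WT values, with KO 2 the lowest library and WT 2 the highest. The mean was 725 ± 98.7 CPM in KO and 968 ± 149 CPM in WT (SD, n = 3 each), a log2 fold change of -0.42 ± 0.20 (SE) that did not pass (edgeR adjusted p = 0.423). The 95% interval of the KO to WT ratio ran from 0.544 to 1.03. Ly6a has close relatives beside it, and how reads shared among them were assigned is not given in the sources used here.

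Other Ly6 genes in these libraries were not alike. Of 12 listed, 8 were tested, and 6 of these had log2 fold changes below 0 (median -0.56), beside 45.8% of all tested genes. DESeq2 called 2 lower, beside 2.83% of all genes. EdgeR called 1 lower, Ly6c1, a surface protein of vessels and monocytes, beside 0.151% of all genes. Ly6c1 had 62.6, 47.2 and 43.2 CPM in KO 1, KO 2 and KO 3, against 179, 150 and 161 CPM in WT 1, WT 2 and WT 3 (log2 fold change -1.68 ± 0.17, edgeR adjusted p = 0.0287). That call held in 1 of 6 edgeR fits that each left out a library, the fit without KO 1, with log2 fold changes from -1.85 to -1.57 and an adjusted p of up to 0.180. Ly6g, a neutrophil surface protein, had a log2 fold change of -1.58 ± 0.49 (adjusted p = 0.248 in edgeR and 0.0122 in DESeq2), and Ly6m one of -0.57 ± 0.25 (edgeR adjusted p = 0.394). Markers of other cells that carry Ly6a are given beside it. All 11 endothelial markers had log2 fold changes below 0 (median -0.79), and their summed level was 137 to 413 CPM in KO and 477 to 536 CPM in WT. Of 16 tested interferon response genes 7 lay below 0 and 9 above (median 0.09), and edgeR called none. The part of these cells in the Ly6a values was not tested.

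Clu encodes clusterin, a secreted chaperone and the marker of the revival stem cells that appear in mouse gut after damage. The gene is on chromosome 14 (65968483 to 65981547, plus strand, GRCm38). It stood at 86.6, 46.4 and 96.1 CPM in KO 1, KO 2 and KO 3, against 99.1, 142 and 156 CPM in WT 1, WT 2 and WT 3. The groups did not overlap, but KO 3 and WT 1 were close and KO 2 lay well below the rest. The log2 fold change was -0.79 ± 0.28, a level 42.3% lower in KO, with a 95% interval of the ratio from 0.367 to 0.908 (edgeR unadjusted p = 0.0233, adjusted p = 0.308). Leaving out 1 library at a time gave log2 fold changes from -0.99 to -0.54, and edgeR called none of them. Without KO 2 it was -0.54. DESeq2 did not call Clu over all libraries (adjusted p = 0.121), and it called Clu lower in 1 of the 6 fits that left out a library, that without KO 3 (-0.99, adjusted p = 0.0435).

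Msln encodes mesothelin, a surface protein of the serosal lining that is also taken up by fetal-like intestinal epithelium. The gene is on chromosome 17 (25748613 to 25754378, minus strand, GRCm38). It had 59, 56 and 44 counts in KO 1, KO 2 and KO 3, against 370, 44 and 63 counts in WT 1, WT 2 and WT 3. WT 1 stood alone, at 15.8 CPM, 5.48 times the mean of the other WT libraries, and those 2 lay within or next to the KO range of 2.36 to 3.47 CPM. The log2 fold change of -1.29 ± 0.67 (edgeR adjusted p = 0.455) was 0.024 without WT 1.

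Anxa8 belongs to the annexins, calcium-dependent membrane-binding proteins, and is known from stratified and wounded epithelia. It lies on chromosome 14 (34085981 to 34100571, plus strand, GRCm38), within a gene on the opposite strand, A630023A22Rik, which had at most 12 counts in any library. Its levels were 45.2, 25.9 and 34.0 CPM in KO 1, KO 2 and KO 3, against 88.3, 38.2 and 98.7 CPM in WT 1, WT 2 and WT 3. WT 1 and WT 3 were above every KO library, and WT 2 lay inside the KO range. The mean was 35.0 ± 9.66 CPM in KO and 75.1 ± 32.4 CPM in WT (SD, n = 3 each), a log2 fold change of -1.10 ± 0.35, or 53.3% lower in KO, with a 95% interval of the ratio from 0.266 to 0.819. The unadjusted p in edgeR was 0.0140 and the adjusted p 0.259, while DESeq2 gave an adjusted p of 0.0410. The authors' deposited table lists a false discovery rate of 0.0474. Its unadjusted p, 0.00138, is the same as that of DESeq2 here, so the deposited rate is not a separate result. The DESeq2 call held in 2 of 6 fits that each left out 1 library, with adjusted p of 0.0159 without KO 1 and 0.000166 without WT 2. DESeq2 adjusted p was 0.252 without KO 2, 0.140 without KO 3, 0.376 without WT 1 and 0.413 without WT 3.

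Because Anxa8 was the member with the smallest p, the 250 bases before its RefSeq start are shown (GRCm38.p6, chr14:34085729-34085978, plus strand). They hold neither the TEAD motif GGAATG nor the AP-1 motif TGANTCA on either strand, so none of its letters are in capitals.
Anxa8: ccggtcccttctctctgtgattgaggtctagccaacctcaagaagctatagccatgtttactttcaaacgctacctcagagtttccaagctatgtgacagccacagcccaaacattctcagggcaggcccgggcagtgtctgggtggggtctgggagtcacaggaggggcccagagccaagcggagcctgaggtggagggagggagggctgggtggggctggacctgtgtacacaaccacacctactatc

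Anxa1 encodes annexin A1, which dampens neutrophil influx through formyl peptide receptors. It lies on chromosome 19 (20373428 to 20390944, minus strand, GRCm38), overlapped by a long noncoding RNA gene on the opposite strand. It had 117, 138 and 109 CPM in KO 1, KO 2 and KO 3, against 175, 84.5 and 142 CPM in WT 1, WT 2 and WT 3. The WT libraries spanned both sides of the KO range, WT 2 being the lowest of the 6 and WT 1 the highest. The log2 fold change was -0.14 ± 0.25 (edgeR adjusted p = 0.846), with a 95% interval of the ratio from 0.604 to 1.36. Its receptor genes, made mainly by neutrophils and monocytes, had lower KO levels: Fpr2 had a log2 fold change of -2.20 ± 0.40 (adjusted p = 0.0821 in edgeR and 0.000209 in DESeq2) and Fpr1 one of -1.87 ± 0.72 (edgeR adjusted p = 0.339), while Fpr3 had 0 counts in all libraries.

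Anxa3, another annexin, lies on chromosome 5 (96793339 to 96845966, plus strand, GRCm38). It had 111, 128 and 84.7 CPM in KO 1, KO 2 and KO 3, against 119, 64.4 and 128 CPM in WT 1, WT 2 and WT 3. The ranges overlapped almost fully, with WT 2 again the lowest library. The log2 fold change was 0.05 ± 0.27 (edgeR adjusted p = 0.951) and the 95% interval of the ratio ran from 0.677 to 1.59. Among 9 other annexin genes 8 were tested, of which 6 had log2 fold changes below 0 (median -0.22), beside 45.8% of all tested genes. Anxa5, Anxa6 and Anxa9 came nearest to the threshold, with log2 fold changes of -0.49 ± 0.17, -0.42 ± 0.16 and -0.94 ± 0.33 and edgeR adjusted p of 0.290, 0.333 and 0.292. KO lay wholly below WT in these 3 of the 8, beside 10.2% of all tested genes. The most abundant of them, Anxa2, named after its values were seen, stood at -0.09 ± 0.24 (edgeR adjusted p = 0.898), and Anxa10, a stomach annexin that fetal-like cells can take up, had 0 counts in all 6 libraries.

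S100a6 encodes calcyclin, a small calcium-binding protein of proliferating epithelium and fibroblasts. Its position is chromosome 3 (90612882 to 90624181, plus strand, GRCm38). Its levels were 261, 270 and 431 CPM in KO 1, KO 2 and KO 3, against 497, 253 and 304 CPM in WT 1, WT 2 and WT 3. Each group had 1 high library, KO 3 and WT 1, and the other 4 lay close together. The log2 fold change was -0.13 ± 0.31 (edgeR adjusted p = 0.887), with a 95% interval of the ratio from 0.561 to 1.49. Among 10 other S100 genes, those with the smallest p were S100a8 (-3.22 ± 0.68), S100a9 (-2.78 ± 0.58) and S100a4 (-0.44 ± 0.22). S100a8 and S100a9, the neutrophil calprotectin genes, were called lower by DESeq2 (adjusted p = 0.00714 and 2.38e-06) but not by edgeR (0.115 for both).

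Krt7 encodes a keratin of duct and simple epithelia that adult mouse colon normally holds at low levels. It lies on chromosome 15 (101411043 to 101430313, plus strand, GRCm38). It had 175, 133 and 213 CPM in KO 1, KO 2 and KO 3, against 183, 149 and 105 CPM in WT 1, WT 2 and WT 3. The groups overlapped, with KO 3 the highest library and WT 3 the lowest. The log2 fold change was 0.25 ± 0.24 (edgeR adjusted p = 0.710), with a 95% interval of the ratio from 0.806 to 1.76. General epithelial markers varied less: their summed level was 14629 to 18570 CPM in KO and 13840 to 16905 CPM in WT. Of the 12, 10 lay above 0 (median 0.09), beside 7888 of all 14553 tested genes, with none called by edgeR or DESeq2.

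Ankrd1 encodes a nuclear ankyrin-repeat cofactor that is a direct target of YAP and TEAD and is also made by muscle. It lies on chromosome 19 (36111961 to 36120099, minus strand, GRCm38). It had 12, 12 and 17 counts in KO 1, KO 2 and KO 3, against 9, 12 and 15 counts in WT 1, WT 2 and WT 3. The groups overlapped in part, with KO 3 the highest library and WT 1 the lowest. Over the summed counts of 41 in KO and 36 in WT the depth-scaled ratio was 1.28, with an exact 95% interval from 0.796 to 2.06 that covers counting error only. The edgeR log2 fold change was 0.32 ± 0.45 (adjusted p = 0.807). Its 95% interval of the ratio, which takes in the spread between libraries, was wider, from 0.606 to 2.57. Ratios within that wider interval could not be told apart here.

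Since Ankrd1 is a textbook YAP target, the TEAD motif GGAATG was searched, on both strands, in the 250 bases before the RefSeq start of the 5 members that the RefSeq promoter table of GRCm38.p6 matched: Anxa1, Anxa8, Ankrd1, Krt7 and S100a6. Of these, 2 held it, Ankrd1 at 2 places and Anxa1 at 1, while 12.6% of the 32851 windows in the table did. The AP-1 motif TGANTCA was in none of the 5 windows and in 6.75% of all. Each site is shown with 12 bases on either side, 5′ to 3′ along the gene's strand, with the motif in capitals. It begins 210 and 123 bases before the start of Ankrd1 and 236 before that of Anxa1, where it reads as its reverse complement. These stretches lie inside the GENCODE bounds of their genes, which begin upstream of the RefSeq starts. Parts of them fall within first exons of other GENCODE transcripts of the same genes. The Krt7 window likewise lies inside the GENCODE bounds of Krt7. The positions are chr19:36120037-36120066 and chr19:36119950-36119979 for Ankrd1 and chr19:20390890-20390919 for Anxa1, all on the minus strand.
Ankrd1, far site: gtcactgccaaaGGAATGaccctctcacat
Ankrd1, near site: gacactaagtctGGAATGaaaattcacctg
Anxa1: actgcactgaacCATTCCtgtgaggaataa
A match describes letters in the window and is not evidence of binding in these colons. Neither of these genes differed between KO and WT beyond the spread between libraries.

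**Figure D2:**
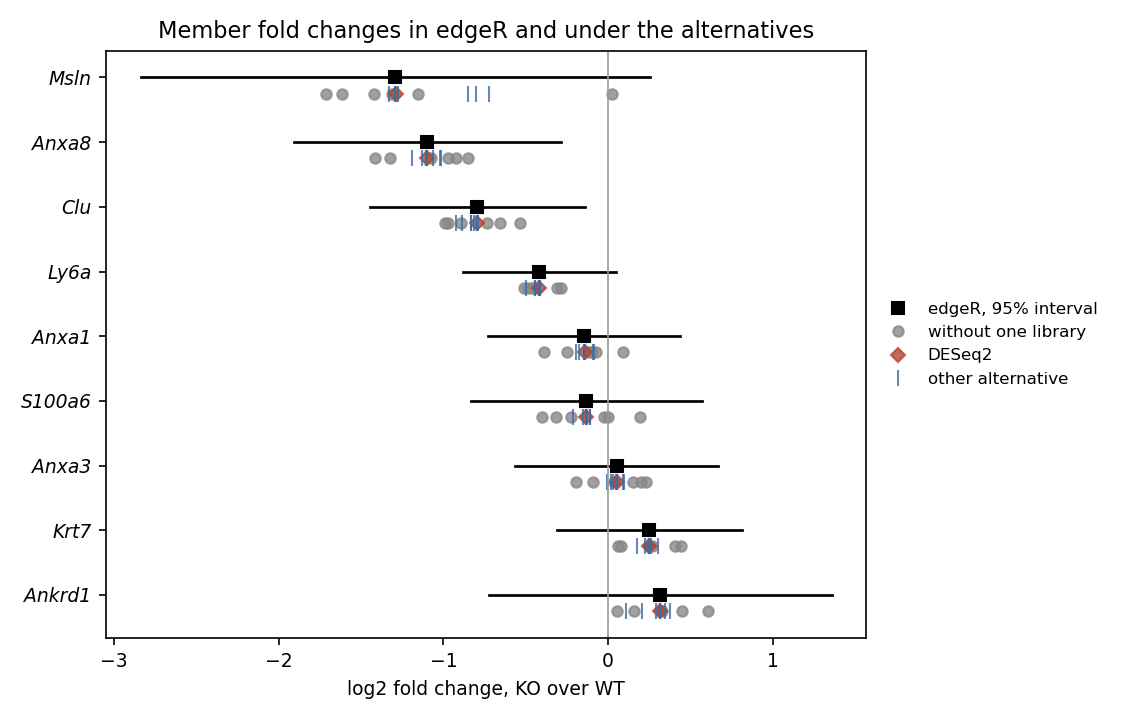
Log2 fold change of each gene, KO over WT (horizontal axis), with the edgeR estimate and its 95% interval in black and the estimates under the 15 alternative fits below it. The interval excludes 0 for Anxa8 and Clu before any adjustment for multiple testing, and the Msln estimate is 0.024 in the fit without WT 1.

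The libraries did not rank alike across the members. WT 1 was the highest library for Anxa1, S100a6 and Msln, WT 3 for Anxa3, Anxa8 and Clu, WT 2 for Ly6a, and KO 3 for Krt7 and Ankrd1. WT 2 was the lowest library for Anxa1, Anxa3, S100a6 and Msln, and KO 2 for Ly6a, Anxa8 and Clu. Over the 6 libraries, Pearson's r of log2(CPM + 1) was above 0 for 19 of the 36 pairs of members, with a median of 0.08 and a range from -0.77 to 0.88. The closest pairs were Anxa1 with Anxa3 (r = 0.88), Ly6a with Clu (0.81) and Anxa1 with Msln (0.81), and the most opposed pairs were Msln with Ankrd1 (-0.77) and Ly6a with Anxa3 (-0.66). These correlations are descriptions over 6 libraries that share the genotype contrast, and the Msln values rest on WT 1.

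**Figure D3:**
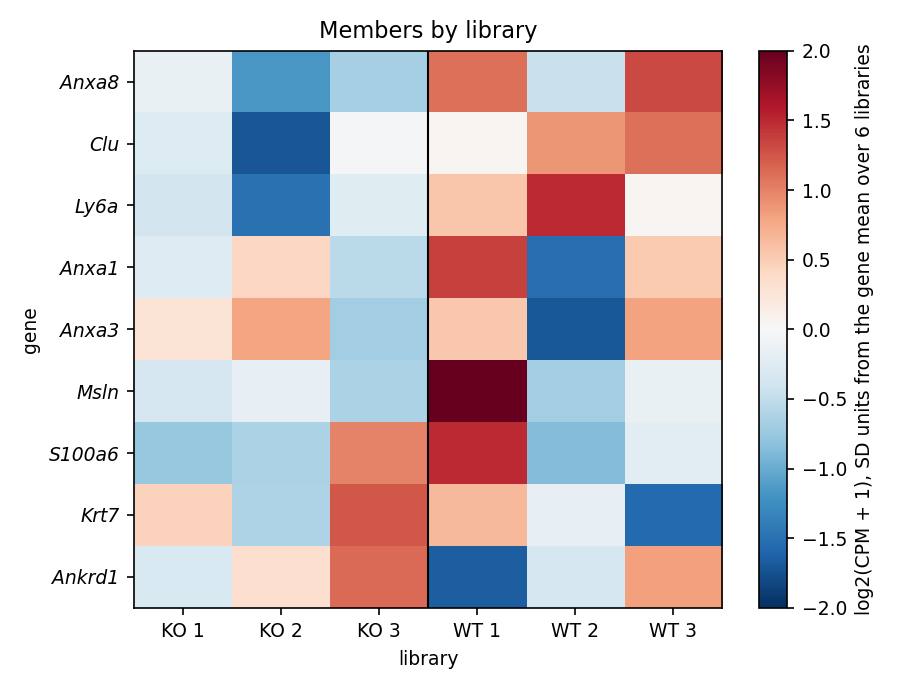
Each gene's log2(CPM + 1) in SD units from its own mean over the 6 libraries, KO libraries left and WT libraries right. Anxa8, Clu and Ly6a are lowest in KO 2, Anxa1 and Anxa3 are lowest in WT 2, and Msln and S100a6 are highest in WT 1.

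For several members the single listed gene with the most similar pattern was a marker of the serosal lining. Each member's highest r among 236 tested genes of the other lists fell on a mesothelium marker for 5 of the 9 members. That list held 12 tested genes, 5.08% of those searched. Msln is itself a gene of the serosal lining, and Anxa1 correlated with Anxa3 (r = 0.88) and Msln (0.81). The 5 matches are therefore not independent of one another. Msln paired with the uroplakin gene Upk3b (r = 0.98), Anxa8 with the transcription factor Wt1 (0.97), Anxa3 with Lrrn4 (0.97), Anxa1 with Bnc1 (0.94) and S100a6 with Upk1b (0.93). Upk3b, which is largely restricted to mesothelium and urothelium, had 4.78, 5.27 and 5.10 CPM in KO 1, KO 2 and KO 3, against 10.9, 4.58 and 5.89 CPM in WT 1, WT 2 and WT 3. It was highest in WT 1, as Msln was. Wt1 had 1.03, 0.248 and 0.215 CPM in KO 1, KO 2 and KO 3, against 2.01, 0.407 and 2.53 CPM in WT 1, WT 2 and WT 3, with the same 2 high WT libraries as Anxa8. The lists as a whole gave a different order for some members. The median r with the mesothelium list was 0.67 for Anxa1, 0.53 for Anxa3 and 0.61 for Msln, above that with each other list of at least 5 tested genes. For Anxa8 it was 0.61, below the 0.73 with neutrophil markers, 0.64 with the other fetal-like genes and 0.63 with endothelial markers. For S100a6 it was 0.26, below the 0.62 with the other S100 genes.

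The mesothelium list as a whole had 10 of 12 genes below 0 (median -0.41), beside 45.8% of all tested genes, and none had 0 counts in all libraries. EdgeR called none of them, and DESeq2 called 1 lower, beside 2.83% of all genes. Its summed level was 2115 to 2931 CPM in KO and 3160 to 3607 CPM in WT, most of it from Krt19 and C3, which other colon cells also make. The other 10 genes summed to 24.7, 29.8 and 22.0 CPM in KO 1, KO 2 and KO 3, against 41.3, 22.6 and 40.1 CPM in WT 1, WT 2 and WT 3, a subset taken after the values were seen. WT 1 and WT 3 were the high libraries, as for Anxa8, and the ranges overlapped through WT 2. Markers of squamous epithelium, which the anal end of the colon carries and which also expresses annexins, were scarce: apart from Sfn and Sprr1a, 11 genes summed to 1.95 to 4.13 CPM in KO and 2.81 to 5.17 CPM in WT. The part of either tissue in the members' values was not tested.

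The remaining members paired with genes of other kinds. Ly6a had its highest r with the EGF receptor ligand Hbegf (0.98) and Clu with the YAP target Fjx1 (0.95). Krt7 had it with the epithelial keratin Krt8 (0.94), and Ankrd1, at its low counts, with Krt10 (0.84). By whole lists, the median r of Ly6a was 0.68 with neutrophil markers, 0.61 with B and plasma cell markers and 0.54 with the other annexins. With the other fetal-like genes it was 0.52. The median r of Clu was 0.58 with neutrophil markers, 0.55 with B and plasma cell markers and 0.52 with the other fetal-like genes. It was also 0.52 with T and NK cell markers, and 0.24 with YAP and TEAD target genes. For Krt7 it was 0.72 with general epithelial markers, and for Ankrd1 -0.02 with squamous markers. The highest of 236 values of r over 6 libraries is large for any gene, so each pairing describes these libraries only.

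Most other genes of the fetal-like and wound program had KO levels below WT. Of 20 further genes, 18 were tested and 17 had log2 fold changes below 0 (median -0.53), beside 45.8% of all tested genes. EdgeR called 1 of them lower and 0 higher, beside 0.151% and 0.00687% of all genes. DESeq2 called 6 lower and 0 higher, beside 2.83% and 0.705% of all genes. KO lay below WT without overlap for 9, beside 10.2% of all tested genes. The called gene in edgeR was the EGF receptor ligand Ereg (-2.65 ± 0.30, adjusted p = 0.0379). That call held in 1 of 6 edgeR fits that each left out a library, the fit without KO 3, while the log2 fold change stayed between -2.95 and -2.38 and the adjusted p reached 0.108. DESeq2 also called Plaur, the urokinase receptor of migrating cells (DESeq2 adjusted p = 0.000829), and Gja1, the gap junction protein connexin 43 (-1.29 ± 0.28, adjusted p = 0.000922), with edgeR adjusted p of 0.102 and 0.116. Its other calls, named after their values were seen, were Il1rn, Il33 and Spp1. The part of neutrophils, macrophages and other cells outside the epithelium in the values of this list was not tested. Areg, a ligand of the same receptor as Ereg and likewise named after its values were seen, stood at 17.2, 17.4 and 18.8 CPM in KO 1, KO 2 and KO 3, against 16.8, 19.3 and 17.4 CPM in WT 1, WT 2 and WT 3.

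YAP and TEAD target genes other than Ankrd1 also had log2 fold changes mostly below 0, without a call. Of 21 tested, 18 had log2 fold changes below 0 (median -0.39), beside 45.8% of all tested genes. At an unadjusted edgeR p below 0.05 there were 3 lower and 1 higher, against 7.85% and 5.17% of all genes. There were 0 calls in edgeR and DESeq2. The smallest p belonged to the kinase Lats2 (-0.54 ± 0.16), the binding protein Igfbp3 (-0.97 ± 0.34) and, above 0, the kinase Nuak2 (0.40 ± 0.14), with edgeR adjusted p of 0.218, 0.293 and 0.298. Many of these genes are also made by stromal cells. Without KO 3, the library low in fibroblast markers, the median of the target genes was -0.16. The fits that left out each other library gave medians from -0.52 to -0.30. The part of stromal cells in these values was not tested. Among the 14 YAP and TEAD regulators the median was 0.01, and Wwtr1 (TAZ), Tead4 and Stk3 came first with edgeR adjusted p of 0.504, 0.633 and 0.628.

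Crypt stem cell genes, which the fetal-like state replaces in wounded epithelium, lay on the other side. Of 15 tested, 14 had log2 fold changes above 0 (median 0.70), beside 7888 of all 14553 tested genes. KO lay above WT without overlap for 10, beside 9.35% of all tested genes. EdgeR called none of them, with 10 higher at an unadjusted p below 0.05, beside 5.17% of all genes. DESeq2 called 8 higher, beside 0.705% of all genes. These included Cdca7, Ephb3 and Tnfrsf19 (DESeq2 adjusted p = 3.24e-05, 0.00143 and 0.00511). The part of cell numbers in these values was not tested. The 3 genes with the smallest p among differentiated colonocyte genes were Aqp8, Saa1 and Fabp2, with log2 fold changes of 0.91, -0.51 and 0.66 and edgeR adjusted p of 0.335, 0.430 and 0.509. Goblet cell genes gave no edgeR call, while DESeq2 called 1 of 9 higher, Agr2, a folding enzyme of mucin (0.91 ± 0.17, DESeq2 adjusted p = 2.17e-06).

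**Figure D4:**
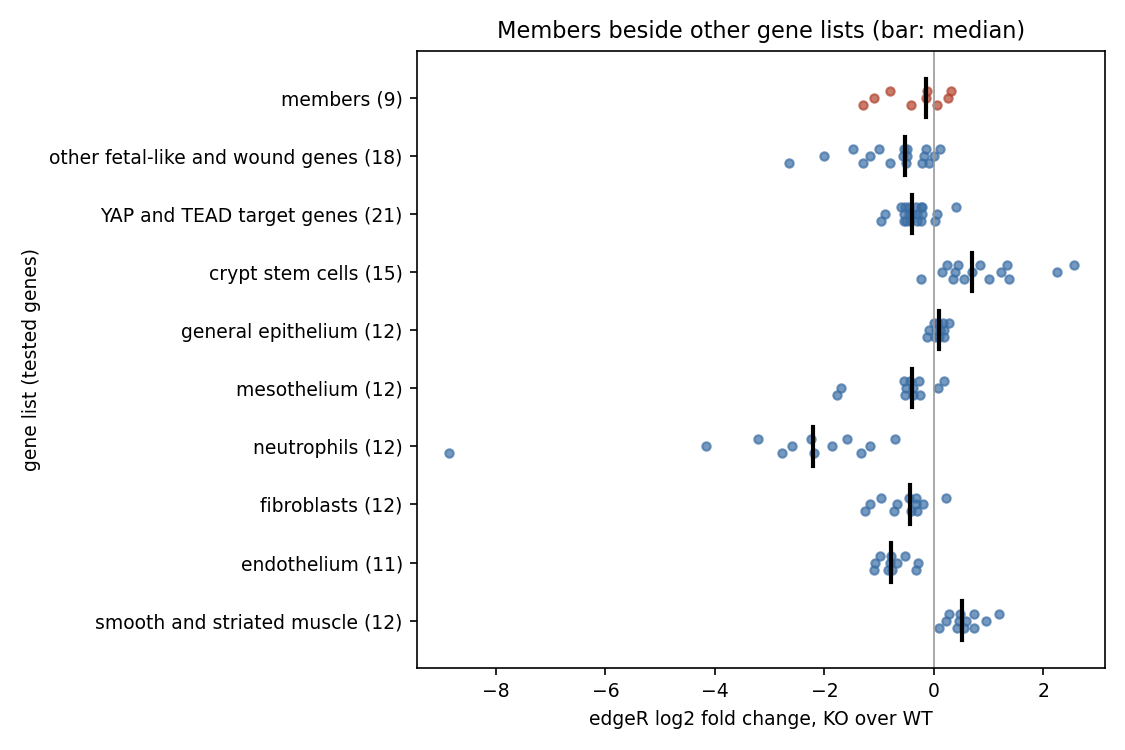
EdgeR log2 fold changes, KO over WT, of the tested genes of each list, with the number tested in brackets and the median as a black bar. The 9 members straddle 0, with a median of -0.14, while the other fetal-like genes have a median of -0.53 and the crypt stem cell genes one of 0.70.

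Markers of several cell types outside the epithelium also had log2 fold changes to 1 side of 0. All 12 tested neutrophil markers had log2 fold changes below 0 (median -2.22), beside 45.8% of all tested genes. Their summed levels were 66.9 to 104 CPM in KO and 185 to 490 CPM in WT. DESeq2 called 7 lower and edgeR 0, beside 2.83% and 0.151% of all genes. Their leading genes were Ngp, which had no count in KO 2 and KO 3, Mmp8 and Ltf. All 13 macrophage and monocyte markers lay below 0 (median -0.80), with overlapping sums of 331 to 926 CPM in KO and 774 to 1301 CPM in WT. Their median was -1.18 without KO 1 and -0.43 without KO 3. All 12 muscle markers lay above 0 (median 0.52), beside 7888 of all 14553 tested genes. DESeq2 called Actg2, Des and Cnn1 higher, beside 0.705% of all genes, and edgeR made 0 calls. Fibroblast markers had a median of -0.44, T and NK cell markers -0.37, and B and plasma cell markers -0.36. Leaving out 1 library moved these medians widely. That of fibroblast markers ran from -1.09 without KO 1 to -0.14 without WT 3. For T and NK cell markers it ran from -0.85 without KO 3 to -0.06 without KO 1. For B and plasma cell markers it ran from -1.53 without KO 3 to -0.12 without KO 2. The part of these cells in the values of Anxa8, Clu, any other member or the other gene lists was not tested.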

How the data were processed

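RNA-seq of 6 colon libraries was analysed from 1 gene table. Its raw read counts per gene, its TPM values, the group means and the log2 fold change, p-value and false discovery rate of each gene are as the authors deposited them. GRCm38, mm10 and mm39 all appear in the submitters' processing notes with no role stated. Which aligner was used, and whether counting used strand, is not given in the sources used here. Positions come from GENCODE M21 on GRCm38, matched by identifier, and sequences from RefSeq (GRCm38.p6).

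Counts were fitted with edgeR 4.0.16 in R 4.3.3 (TMM factors, filterByExpr, quasi-likelihood F-test, two-sided, 14553 genes tested) and p-values were adjusted by Benjamini-Hochberg over all of them. Standard errors were derived from the F statistic. Alternatives used DESeq2 1.42.0, limma 3.58.1 (voom, and log2(TPM + 1) with a pseudocount of 1), other scalings and filters, the replicate number as a block, and leaving out each library. The code was tested on simulated data. Libraries differed pairwise by more than counting noise (chi-square divided by its degrees of freedom at least 43.0).

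The members, the 21 other gene lists (254 genes) and the tests were chosen with earlier results of these data known. Named genes are the members, Adamts4, the 3 genes of each list with the smallest p and a mean of at least 1 CPM in the higher group, and the listed gene closest to each member; for lists given only by range, not every such gene is named. Intervals of count ratios cover counting error only.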

Additional observations from a re-analysis of the deposited data

How the results depend on the processing

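Of the 15 alternative fits, 14 called no member, and DESeq2 called 1, Anxa8, lower (log2 fold change -1.10). Ly6a, Anxa8, Clu, Krt7 and Ankrd1 kept their direction in every alternative that tested them; Ankrd1 was not tested with a filter of 1 CPM in 3 libraries. Signs turned for Anxa1 and S100a6 without WT 1 (0.089 and 0.20), for Msln without WT 1 (0.024), and for Anxa3 without KO 2 (-0.09), without WT 2 (-0.20) and, in a fit added after the data were seen, with libraries scaled to 12 general epithelial genes (-0.0063); the cause was not tested. Without 1 library at a time, Ly6a ranged from -0.51 to -0.29, Anxa8 from -1.41 to -0.85, Clu from -0.99 to -0.54, Anxa1 from -0.39 to 0.089, Anxa3 from -0.20 to 0.23, S100a6 from -0.40 to 0.20, and Msln from -1.72 to 0.024.

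The DESeq2 fits without 1 library, for Anxa8 and Clu, were also added after the data were seen. Calls over all tested genes, 22 lower and 1 higher in edgeR, numbered 9 and 0 with median-ratio factors, 38 and 1 with upper-quartile factors, 434 and 108 in DESeq2, 27 and 2 in limma-voom, 66 and 2 in limma on log2(TPM + 1), 66 and 3 without a filter, and 1 and 0 with epithelial scaling. Without 1 library they ranged from 1 to 29 lower and from 0 to 2 higher. Calls among the other gene lists, 2 in edgeR, were 36 in DESeq2, 5 in limma on log2(TPM + 1), 5 without a filter, 0 with epithelial scaling (Ereg adjusted p = 0.114, Ly6c1 0.101), and 0 to 3 without 1 library. With the replicate block there were 78 lower, 3 higher and 6 list calls, and no member. Same-numbered libraries did not deviate together (correlations of -0.50 to -0.18 over 3 pairs), and 0 of 3 KO libraries were closest to their own number, so the numbers were not treated as pairs. Depth limits Ankrd1, with 9 to 17 counts per library.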
